A study of Mus musculus with 24 samples.

Results

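Tendon and cartilage marker genes were followed in mouse tibialis anterior muscle, together with Sox9, a transcription factor of both lineages. The 9 members (Scx, Tnmd, Mkx, Fmod, Thbs4, Comp, Chad, Acan and Sox9) form a list of named genes, not one selected by a threshold on these values, and were found by mapping the gene identifiers of the 24 deposited count tables to GENCODE mouse symbols. They are 9 of the 55487 genes listed. Poly(A) RNA of each muscle was sequenced and counted per gene, and levels are given in CPM, each gene's counts scaled to a common library size after TMM normalization. On build GRCm38 the members lie apart on 8 chromosomes, among them Scx (ENSMUSG00000034161) at chr15:76457452-76459458, Tnmd (ENSMUSG00000031250) at chrX:133850980-133865577, Thbs4 (ENSMUSG00000021702) at chr13:92751590-92794818 and Sox9 (ENSMUSG00000000567) at chr11:112782224-112787760, the chromosome that also holds Chad.

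All animals were male wild-type C57BL/6J mice aged 5 to 7 weeks, in 4 groups of 6. Sedentary control and sedentary PBMT mice did not run, and fatigued control and fatigued PBMT mice ran on a treadmill to exhaustion and were killed directly afterwards. Photobiomodulation therapy (PBMT) was 830 nm light at 25 mW/cm², 20 min for 30 J/cm², and tissue was taken 24 h later, while controls were shaved and anesthetised for the same time without light. Sedentary and fatigued mice were also sequenced as separate projects, so exercise and sequencing project cannot be told apart, and fatigued libraries were deeper. Total counts were 43271093 to 46904076 in sedentary control, 46327516 to 52775844 in sedentary PBMT, 56792327 to 68726155 in fatigued control and 53122528 to 68566029 in fatigued PBMT libraries.

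Tendon joins the muscle to bone, and a sample of whole muscle can carry tendon, the fascia around the muscle and the junction between muscle fibre and tendon along with the fibres. Scleraxis (Scx) and Mohawk (Mkx) are transcription factors of tendon cells, and tenomodulin (Tnmd) is a membrane protein of mature tendon cells. Fibromodulin (Fmod) binds collagen fibrils, thrombospondin 4 (Thbs4) and cartilage oligomeric matrix protein (Comp) are related matrix glycoproteins, chondroadherin (Chad) is a leucine-rich matrix protein, and aggrecan (Acan) is the large proteoglycan of cartilage, whose cells depend on SOX9.

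The samples carried the markers of fast skeletal muscle. Per kilobase of exon, the median level over the 24 mice was 16114 CPM for the actin gene Acta1, 6963 CPM for the creatine kinase gene Ckm and 6760 CPM for the myosin gene Myh4. On the same scale the tendon collagen genes Col1a1 and Col1a2 had medians of 40.1 and 30.0 CPM per kb. The members followed in the order Fmod at 29.2, Thbs4 at 25.9, Tnmd at 6.07, Chad at 5.05, Comp at 2.40, Scx at 1.64, Sox9 at 0.537, Mkx at 0.169 and Acan at 0.00991 CPM per kb. Neighbours in this order were not all apart, since Fmod stood above Thbs4 in 15 of 24 mice, Tnmd above Chad in 16 of 24, and Comp above Scx in 17 of 24. The order of group medians turned with the state, since in both fatigued groups Thbs4 (48.6 CPM per kb in controls and 43.5 in PBMT mice) stood above Fmod (45.5 and 40.6) and Chad (9.41 and 8.80) above Tnmd (8.58 and 7.08), and in both sedentary groups Scx stood above Comp. Thbs4 stood above Tnmd, Chad above Comp and Sox9 above Mkx in each of the 24 mice.

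Of the 22 Sox9 partners and cartilage genes listed, some well-known cartilage genes were at or near 0 and others were present in every mouse. Snorc had no count in any of the 24 mice, Matn1 none in 23 and Col10a1 none in 20, while Col2a1, the main cartilage collagen gene, had group medians of 0.362 to 0.601 CPM and did not exceed 1.27 CPM in any mouse. Other cartilage genes were counted in all 24 mice, with ranges of 2.74 to 21.3 CPM for the collagen gene Col11a2, 1.13 to 4.06 CPM for Col9a1, 1.45 to 4.55 CPM for Cytl1 and 0.185 to 2.93 CPM for Matn4. The name cartilage marker is used here for where these members are best known, and cartilage tissue in the samples was not tested.

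3 mice stood apart from the rest of their project. Fatigued PBMT mouse 5 was the highest of the 12 fatigued mice for 8 of the 9 members, every member but Sox9, and for 19 of 20 other tendon matrix genes, against 2855 of 15108 genes (18.9%) overall. Fatigued control mouse 4 was the lowest of the 12 for 5 members, Tnmd, Fmod, Thbs4, Comp and Chad. The share of all genes that were lowest in that mouse was not counted. Sedentary control mouse 4 was the highest of the 12 sedentary mice for 4010 of 15108 genes (26.5%), among them Scx, and was the lowest for Mkx.

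Of the 3 regulators, Scx had the smallest differences between fatigued and sedentary mice. Its lowest, median and highest levels were 2.39, 3.05 and 7.40 CPM in sedentary controls, 2.76, 3.65 and 3.94 CPM in sedentary PBMT mice, 2.43, 3.03 and 3.98 CPM in fatigued controls and 2.51, 3.36 and 5.41 CPM in fatigued PBMT mice. All 4 groups overlapped, and the 2 highest values belonged to sedentary control mouse 4 and fatigued PBMT mouse 5. Scx lies inside an intron of Bop1, a ribosome biogenesis gene on the opposite strand, and Bop1 was also highest in sedentary control mouse 4, at 35.7 CPM against a group median of 19.8 CPM. The library kit kept strand information, but whether the counting used it is not stated, so the share of Scx counts that came from Bop1 was not tested. As a description over 24 mice, deviations from the group means of Scx and Bop1 (log2 CPM) had a Pearson r of 0.66, made up of 0.90 in the 12 sedentary and -0.019 in the 12 fatigued mice. It rested on sedentary control mouse 4, without which (a setting chosen after seeing the data) r was 0.13 over 23 mice and 0.41 over 11 sedentary mice.

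Mkx was scarce, with 4 to 184 counts per mouse. Its lowest, median and highest levels were 0.0878, 0.612 and 0.987 CPM in sedentary controls, 0.258, 0.608 and 0.879 CPM in sedentary PBMT mice, 0.522, 1.03 and 1.30 CPM in fatigued controls and 0.389, 0.887 and 2.83 CPM in fatigued PBMT mice. All 4 groups overlapped, and fatigued PBMT mouse 5 held the top value, with the next fatigued PBMT mouse at 1.42 CPM. Mkx overlaps the noncoding gene AC148004.2 on the same strand, which was listed with no count in any of the 24 mice, and how reads from the overlap were assigned was not tested.

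Sox9 was the member that separated fatigued from sedentary muscle. Its lowest, median and highest levels were 1.08, 1.78 and 1.87 CPM in sedentary controls, 1.03, 1.65 and 2.11 CPM in sedentary PBMT mice, 2.33, 3.32 and 8.49 CPM in fatigued controls and 4.01, 5.17 and 9.44 CPM in fatigued PBMT mice. Each of the 12 fatigued mice lay above each of the 12 sedentary mice. Among all genes, every fatigued mouse above every sedentary mouse held for 4.08% in controls and 5.98% in PBMT mice. The share of genes that separated all 12 from all 12 was not counted. The high fatigued values came from other animals than those of the tendon genes, namely fatigued PBMT mouse 3 at 9.44 CPM, fatigued PBMT mouse 4 at 8.92 CPM and fatigued control mouse 6 at 8.49 CPM. The next fatigued control stood at 3.85 CPM, below all 6 fatigued PBMT mice, so the fatigued groups overlapped through fatigued control mouse 6 alone.

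Tnmd, the membrane marker of tendon cells, ranged more widely among fatigued mice than the group medians differed. Its lowest, median and highest levels were 4.98, 7.27 and 9.87 CPM in sedentary controls, 4.33, 6.90 and 12.3 CPM in sedentary PBMT mice, 4.18, 11.6 and 15.2 CPM in fatigued controls and 4.95, 9.58 and 29.5 CPM in fatigued PBMT mice. All 4 groups overlapped, and the fatigued groups held both the lowest mouse, fatigued control 4, and the highest, fatigued PBMT 5.

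The most abundant matrix members were Fmod and Thbs4. Fmod had lowest, median and highest levels of 49.3, 67.5 and 120.5 CPM in sedentary controls, 58.6, 81.6 and 97.1 CPM in sedentary PBMT mice, 31.5, 150.3 and 231.8 CPM in fatigued controls and 75.6, 134.2 and 459.3 CPM in fatigued PBMT mice. In fatigued muscle 5 of 6 controls lay above every sedentary control, and the sixth, mouse 4, lay below all of them. Thbs4 had lowest, median and highest levels of 48.9, 61.9 and 82.5 CPM in sedentary controls, 53.0, 64.5 and 87.6 CPM in sedentary PBMT mice, 66.1, 159.8 and 187.2 CPM in fatigued controls and 94.4, 143.2 and 320.9 CPM in fatigued PBMT mice. All 6 fatigued PBMT mice lay above all 6 sedentary PBMT mice for Thbs4, and 5 of 6 fatigued controls lay above every sedentary control.

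Comp and Chad had lower levels than Fmod and Thbs4. Above every sedentary control lay 5 fatigued controls for Comp and 4 for Chad. For each gene 1 fatigued control lay below all sedentary controls, and 4 fatigued PBMT mice lay above every sedentary PBMT mouse. Comp had lowest, median and highest levels of 3.53, 4.44 and 7.18 CPM in sedentary controls, 2.82, 4.86 and 8.04 CPM in sedentary PBMT mice, 1.74, 11.4 and 26.3 CPM in fatigued controls and 5.38, 10.1 and 49.5 CPM in fatigued PBMT mice. Chad had lowest, median and highest levels of 3.25, 4.53 and 12.5 CPM in sedentary controls, 3.27, 7.27 and 10.1 CPM in sedentary PBMT mice, 1.69, 15.8 and 25.7 CPM in fatigued controls and 5.33, 14.8 and 68.9 CPM in fatigued PBMT mice. For both genes the fatigued groups overlapped the sedentary groups, and the top value of fatigued PBMT mouse 5 stood far above the next mouse of its group, at 13.3 CPM for Comp and 18.1 CPM for Chad. Chad overlaps Acsf2 on the opposite strand, which had 1.15 to 3.12 CPM over the 24 mice, highest in fatigued PBMT mouse 5, and a Pearson r of 0.46 with Chad (deviations from group means). As for Scx, the share of Chad counts that came from this neighbour was not tested.

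Acan was close to the limit of detection and did not pass the low-count filter in the fits given below, so those tests leave it out. Counts ran from 1 to 9 in sedentary controls, 0 to 34 in sedentary PBMT mice, 2 to 91 in fatigued controls and 1 to 359 in fatigued PBMT mice. The sedentary PBMT mouse without a count allows a level of up to 0.0644 CPM (3 counts, counting error only). Fatigued PBMT mouse 5 reached 5.51 CPM while the next mouse of its group had 0.215 CPM, so most of the Acan signal sat in 1 animal. Fitted without the filter by edgeR's quasi-likelihood test with Benjamini-Hochberg adjustment, Acan was called in none of the comparisons run that way, with a log2 value of 2.63 (SE 1.26, adjusted p 0.215) between fatigued and sedentary PBMT mice and a slope against log2 Tnmd of 2.80 (SE 0.72, adjusted p 0.146) among fatigued mice. It also passed the filter in 19 of the 24 fits over all mice that left out 1 animal, and was called in none of them, with 2.36 to 2.87 (edgeR adjusted p 0.0837 to 0.196) between fatigued and sedentary PBMT mice.

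**Figure D1:**
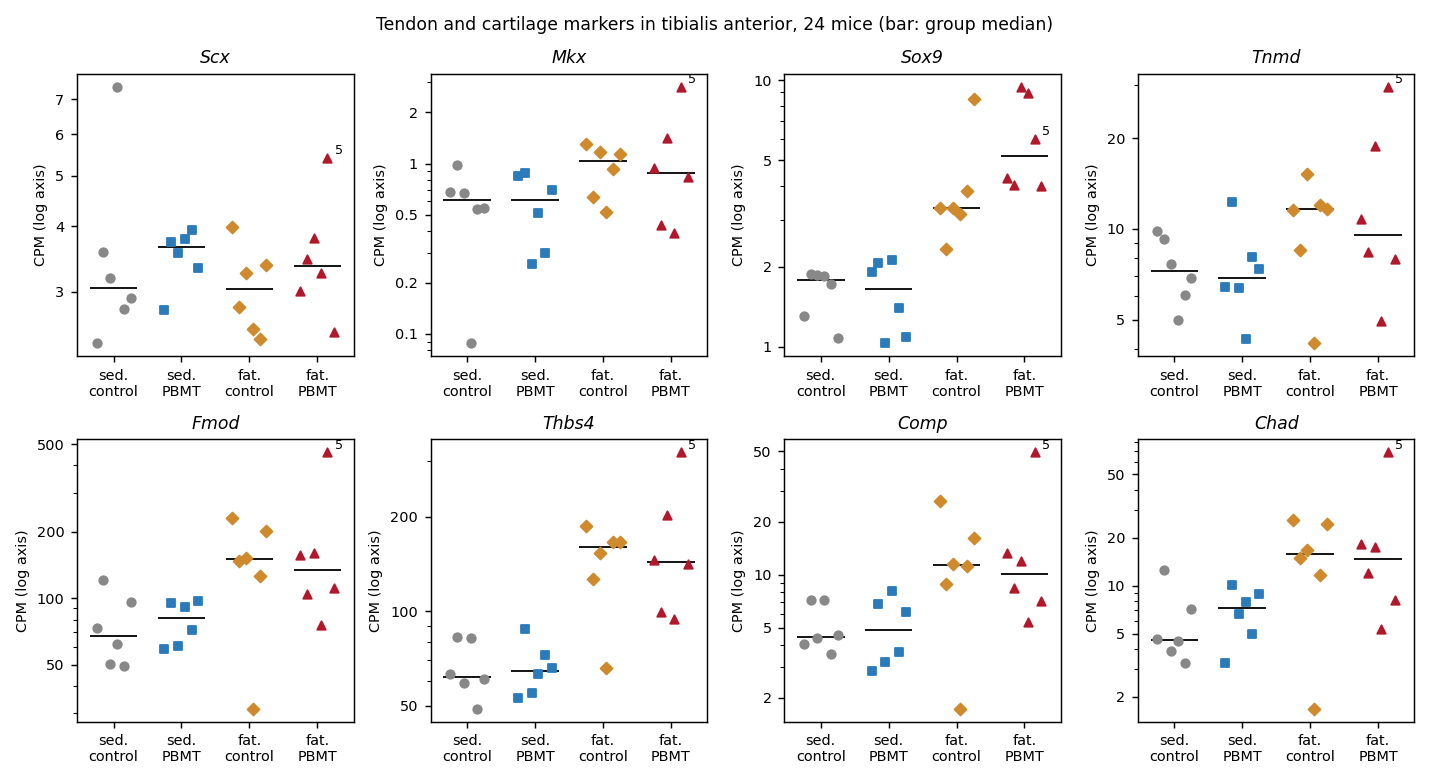
Level of 8 members, all but Acan, in each mouse (CPM, log axis) by group, 1 point per mouse, 6 mice per group, with a bar at the group median and the number 5 beside fatigued PBMT mouse 5. Sox9 was above 2.3 CPM in the 12 fatigued mice and at or below 2.11 CPM in the 12 sedentary mice, whereas the tendon matrix genes spread widely within the fatigued groups.

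PBMT was compared with control inside each project, the comparison the study was designed for. In sedentary muscle edgeR's quasi-likelihood test with Benjamini-Hochberg adjustment called 0 of 8 tested members at an adjusted p under 0.05, against 4 of 14177 genes (0.0282%). At an unadjusted p under 0.05 it gave 0 members and 1082 genes, and DESeq2 called 60 genes and 0 members. The 8 log2 fold changes ran from -0.06 (SE 0.22) for Scx to 0.22 (SE 0.34) for Chad, 4 of them positive, and their median was 0.0032 against -0.0019 over all genes tested. The Chad value ran from 0.087 without sedentary PBMT mouse 2 to 0.58 without sedentary control mouse 2. Without sedentary control mouse 4 the Scx value was 0.25 (SE 0.13, edgeR adjusted p 0.568). With all 12 mice the difference of mean log2 CPM was 0.028, so the sign of the Scx value depended on that mouse and on the measure. Higher in PBMT mice were 1 of 9 interstitial mesenchymal genes (median -0.29), 2 of 6 slow muscle genes (median -0.19) and 7 of 20 other tendon matrix genes (median -0.11). Junction genes were at 3 of 5 (median 0.029), bone at 2 of 4 (0.18), skin at 3 of 3 (0.32), adipocyte at 1 of 5 (-0.025) and fast muscle at 5 of 10 (-0.0018). By edgeR 0 of these genes were called, and 3 interstitial genes had an unadjusted p under 0.05. Their part in the member values was not tested.

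In fatigued muscle all 8 tested members had a positive log2 fold change, PBMT against control, and none passed the test. The edgeR quasi-likelihood test with Benjamini-Hochberg adjustment called 0 of 8 members and 0 of 14574 genes (0%). At an unadjusted p under 0.05 it gave 0 members and 230 genes. DESeq2 called 2 genes and 0 members, and at an unadjusted p under 0.05 it gave 458 genes and 1 member, Sox9 (unadjusted p 0.0497, adjusted p 0.9998). In a single edgeR model of all 24 mice Sox9 was likewise the 1 member of 310 genes at that level (unadjusted p 0.0419, adjusted p 0.99996). The log2 fold changes ran from 0.21 (SE 0.32) for Thbs4 to 0.59 (SE 0.33) for Sox9, with a median of 0.30 against 0.0041 over all genes. This direction rested on fatigued PBMT mouse 5 for most members. Without it 2 of 8 were positive and the median was -0.16, with Fmod at -0.29 (SE 0.42), Comp at -0.46 (SE 0.52), Chad at -0.38 (SE 0.56), Mkx at -0.24 (SE 0.34), Thbs4 at -0.083 (SE 0.27) and Tnmd at -0.048 (SE 0.36). Scx was at 0.061 (SE 0.15), and Sox9 was as large as with that mouse, at 0.59 (SE 0.36). The Sox9 value depended on other animals, from 0.42 without fatigued PBMT mouse 3 to 0.94 without fatigued control mouse 6, and was not called in any of these 12 fits. Leaving out any other single mouse kept 8 of 8 positive, and without fatigued control mouse 4 the median was 0.16. Lists of other tissues went in either direction in this contrast, with 0 genes called by edgeR in any of those described here. Higher in PBMT mice were 9 of 9 interstitial mesenchymal genes (median 0.099), 6 of 6 slow muscle genes (median 0.51), 4 of 5 bone genes (median 0.42), 4 of 5 junction genes (median 0.061), 3 of 5 adipocyte genes (median 0.013), 2 of 3 skin genes (median 0.026) and 2 of 10 fast muscle genes (median -0.019). An unadjusted p under 0.05 was reached by 1 slow muscle, 1 bone and 1 skin gene, and DESeq2 counts were not taken for these lists. That skin gene was Trp63, at 0.89 (SE 0.16, edgeR unadjusted p 8.83e-05, adjusted p 0.9998), rank 1 by p among the 14574 genes. Trp63 was counted in all 24 mice, at 3.10 to 16.0 CPM, whereas the keratin genes Krt5 and Krt14 had no count in 17. Which cells its counts came from was not tested. The interstitial genes were, without fatigued PBMT mouse 5, at 2 of 9 (median -0.11), slow muscle at 2 of 6 (median -0.017), bone at 3 of 5 (median 0.13), adipocyte at 1 of 5 (median -0.36) and fast muscle at 6 of 10 (median 0.0017), and their part in the member values was not tested.

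A model-free check of single members gave the same picture. In fatigued mice a two-sided exact permutation test on mean log2 CPM, 6 PBMT against 6 control mice, gave p = 0.0996 for Sox9 with a difference of 0.62, 0.316 for Scx and 0.682 to 0.989 for the other 7 members, Acan at 0.874 among them. In sedentary mice the exact permutation p ran from 0.459 for Chad to 0.965 for Thbs4 over the 9 members. These are 18 tests without adjustment, and none was under 0.05.

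The difference of the PBMT effect between fatigued and sedentary muscle was tested as an interaction over all 24 mice. The edgeR quasi-likelihood test with Benjamini-Hochberg adjustment called 0 of 8 members and 1 of 15108 genes (0.00662%). At an unadjusted p under 0.05 it gave 0 members and 665 genes, and DESeq2 called 1 gene and 0 members. Sox9 had the largest interaction of the members, 0.60 (SE 0.40, edgeR adjusted p 0.946), which ran from 0.43 without fatigued PBMT mouse 3 to 0.95 without fatigued control mouse 6. For the average PBMT effect over both projects the same edgeR test called 0 of 8 members and 0 of 15108 genes (0%). At an unadjusted p under 0.05 it gave 0 members and 578 genes, and DESeq2 called 3 genes and 0 members. The average effect on Chad was 0.34 (SE 0.41), and it ran from -0.076 to 0.51 when 1 mouse was left out. The average effect on Sox9 was 0.29 (SE 0.20), with 0.20 without fatigued PBMT mouse 3 and 0.46 without fatigued control mouse 6.

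Tnmd then served as a stand-in for the tendon RNA of a sample, and each other gene was regressed on it (log2 CPM on log2 CPM) within the groups. In fatigued mice the tendon genes rose with Tnmd from mouse to mouse. The edgeR quasi-likelihood test of this slope with Benjamini-Hochberg adjustment called 5 of 7 members, all with positive slopes, against 201 of 14573 genes (1.38%), 179 of them (1.23%) with positive slopes. At an unadjusted p under 0.05 it gave 6 members and 2382 genes, and 1434 of those genes had positive slopes. The slopes were 0.71 (SE 0.074, edgeR adjusted p 0.00157) for Thbs4, 0.96 (SE 0.14, adjusted p 0.00592) for Mkx, 1.06 (SE 0.17, adjusted p 0.0210) for Fmod, 1.47 (SE 0.24, adjusted p 0.0210) for Chad and 1.33 (SE 0.24, adjusted p 0.0302) for Comp. Scx had a slope of 0.28 (SE 0.096, adjusted p 0.153) and Sox9 of 0.13 (SE 0.22, adjusted p 0.845), and neither passed. Leaving out 1 mouse, the Scx slope fell to 0.17 without fatigued PBMT mouse 5, and the Sox9 slope ran from 0.023 without fatigued PBMT mouse 3 to 0.44 without fatigued PBMT mouse 4. Differences in the amount of tendon tissue and in tendon RNA per cell cannot be told apart in such bulk samples. Genes of other tissues also had positive slopes on Tnmd in fatigued mice. The median slope was 1.03 for 5 adipocyte, 1.00 for 6 slow muscle, 0.25 for 9 interstitial and 0.019 for 10 fast muscle genes. What these genes share with Tnmd was not tested.

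The 5 slope calls depended on single animals although the slopes did not change sign. Without fatigued PBMT mouse 5 the edgeR test called 0 members and 0 genes, with slopes of 0.68 (SE 0.10) for Thbs4, 0.97 (SE 0.26) for Fmod, 1.20 (SE 0.37) for Comp, 1.39 (SE 0.37) for Chad and 0.84 (SE 0.18) for Mkx. Without fatigued PBMT mouse 4 the calls were Mkx and Thbs4, 2 members and 42 genes, and without fatigued PBMT mouse 6 the same 2 members and 63 genes. Comp alone lost its call without fatigued control mouse 2, fatigued control mouse 4 or fatigued PBMT mouse 2, which left 4 members and 95, 140 and 125 genes. Comp also lost its call without the low-count filter (edgeR adjusted p 0.0595), where 4 members and 229 genes were called. Gene counts without fatigued control mouse 6 were 129, and without fatigued PBMT mouse 1 they were 307, each with all 5 members. Without both mice farthest from the median of Tnmd, fatigued control 4 and fatigued PBMT 5, the calls were 0 members and 3 genes. The slopes were also smaller there, with a median over 7 members of 0.54 in place of 0.96, and values of 0.51 (SE 0.19) for Fmod, 0.54 (SE 0.11) for Thbs4, 0.64 (SE 0.32) for Comp and 0.83 (SE 0.30) for Chad, while Mkx was at 0.97 (SE 0.24).

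In sedentary mice, whose Tnmd range was narrower, the edgeR slope test with Benjamini-Hochberg adjustment called 0 of 7 members and 0 of 14176 genes (0%). At an unadjusted p under 0.05 it gave 0 members and 1455 genes, and DESeq2 was not run for slopes. The largest slopes were 0.96 (SE 0.47) for Mkx and 0.56 (SE 0.38) for Chad, while Comp at -0.085 (SE 0.30), Sox9 at -0.058 (SE 0.25) and Scx at -0.41 (SE 0.25) were negative. These slopes depended on single mice, with Mkx from 0.56 without sedentary control mouse 4 to 1.33 without sedentary PBMT mouse 4 and Chad from 0.26 without sedentary control mouse 2 to 1.00 without sedentary PBMT mouse 4. Fmod at 0.33 ran from 0.17 to 0.67 over the same 12 fits, and Thbs4 at 0.25 from 0.088 to 0.46.

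Slopes on Tnmd were also taken for 20 other tendon matrix genes. In fatigued mice 20 of 20 had positive slopes and 9 were called by the edgeR test, among them Col1a2 at 0.87 (SE 0.085) and Kera, which encodes the small proteoglycan keratocan, at 0.93 (SE 0.11). The median slope was 0.72 against 0.0036 over all genes. Of all 14573 genes, 179 (1.23%) were called with positive slopes. An unadjusted p under 0.05 was reached by all 20 listed genes and by 2382 genes tested, 1434 of the latter with positive slopes. All 20 slopes were still positive without fatigued PBMT mouse 5, with 14 at an unadjusted p under 0.05, 0 called and a median of 0.45. In sedentary mice 19 of 20 slopes were positive, 8 had an unadjusted p under 0.05 and 0 were called, with a median of 0.47. Of all genes tested there, 1455 of 14176 had an unadjusted p under 0.05. The summed level of the list was 982 to 1553 CPM in sedentary controls, 822 to 1675 CPM in sedentary PBMT mice, 1383 to 2664 CPM in fatigued controls and 1317 to 5470 CPM in fatigued PBMT mice, with Col1a2 as the most abundant gene. The maximum was again fatigued PBMT mouse 5, and the next fatigued PBMT mouse had 2732 CPM.

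With Tnmd as a covariate, the PBMT differences of the tendon genes in fatigued muscle were near 0. The log2 values were 0.010 (SE 0.11) for Thbs4, -0.050 (SE 0.25) for Fmod, -0.096 (SE 0.33) for Chad, -0.12 (SE 0.34) for Comp, -0.16 (SE 0.21) for Mkx and 0.14 (SE 0.15) for Scx. Over the 12 fits that left out 1 mouse, Mkx ran from -0.25 to -0.038 and Scx from 0.064 to 0.22. Sox9 was at 0.57 (SE 0.34), and leaving out 1 mouse moved this value from 0.23 without fatigued PBMT mouse 4 to 0.92 without fatigued control mouse 6. By the edgeR test with Benjamini-Hochberg adjustment 0 of 7 members and 0 of 14573 genes (0%) were called. At an unadjusted p under 0.05 there were 0 members and 237 genes, and DESeq2 was not run with a covariate. The median of the 7 members was -0.050, and the other tendon matrix genes went from 19 of 20 higher in PBMT mice with a median of 0.31 to 11 of 20 with a median of 0.019. Without fatigued PBMT mouse 5, and without the covariate, 1 of those 20 was higher and the median was -0.15. In sedentary muscle the same model called 0 of 7 members and 13 of 14176 genes (0.0917%), with 0 members and 1124 genes at an unadjusted p under 0.05. Leaving out 1 mouse, this model called 2 genes without sedentary control mouse 6 and 31 without sedentary PBMT mouse 5, and 0 members each time. The member values ran from -0.029 (SE 0.21) for Scx to 0.26 (SE 0.33) for Chad, and that of Chad from 0.070 without sedentary PBMT mouse 4 to 0.56 without sedentary control mouse 2.

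**Figure D2:**
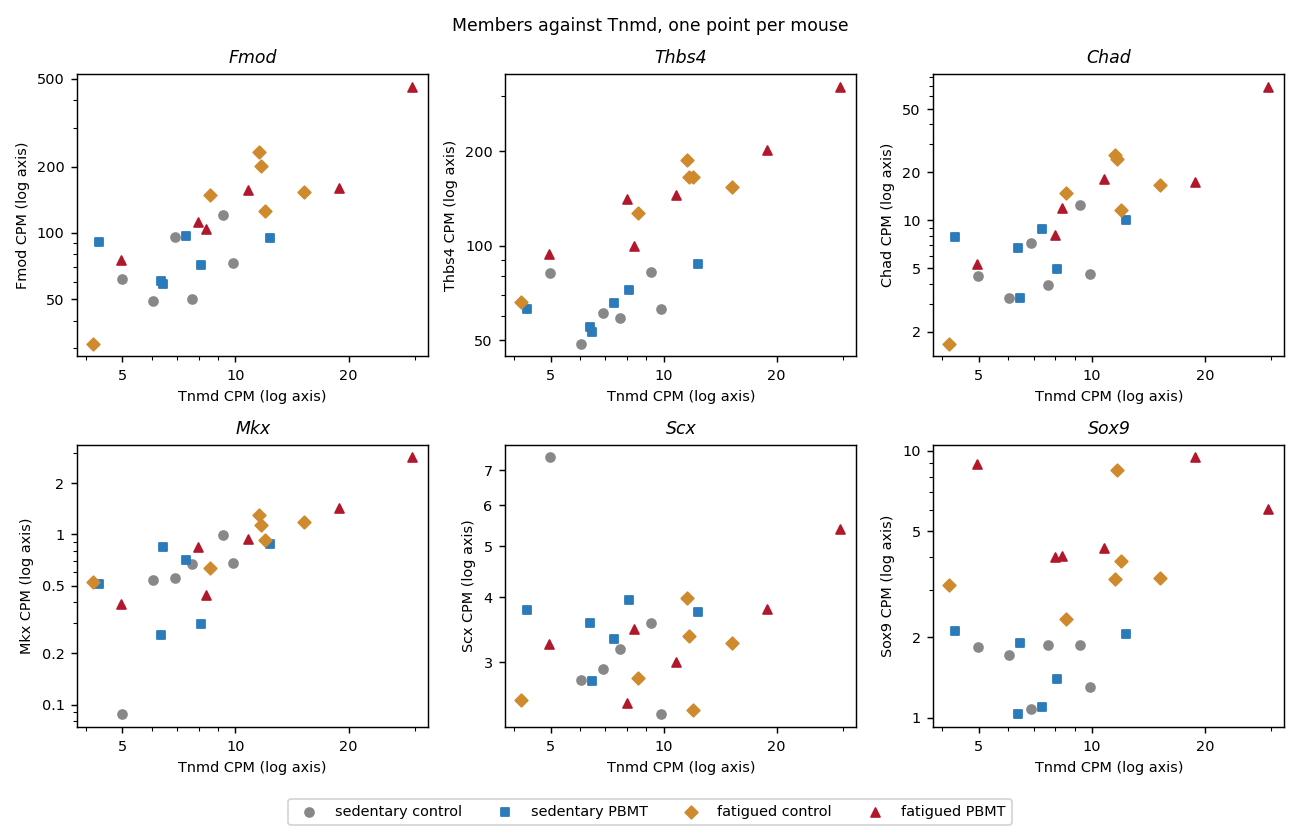
Level of 6 members against Tnmd in each mouse (CPM, both axes logarithmic), coloured by group, 24 mice. Fmod, Thbs4, Chad and Mkx climb with Tnmd in the fatigued mice, with fatigued control 4 at the lower end and fatigued PBMT 5 at the upper end, while Sox9 does not follow it.

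Likeness was described as the Pearson r of log2 CPM deviations from the group mean over 24 mice, with no test. The 5 genes most like Tnmd were Sparc (0.88), 1500015O10Rik (0.88), Gpx8 (0.87), Kera (0.86) and Loxl2 (0.86), which include the collagen-binding protein gene Sparc and the collagen cross-linking enzyme gene Loxl2. Among members Tnmd was closest to Thbs4 at 0.84, with 0.42 in the 12 sedentary and 0.94 in the 12 fatigued mice, and 0.77 over the 23 mice without fatigued PBMT 5. The low sedentary value depended on sedentary control mouse 4, without which r was 0.72 over 11 sedentary and 0.90 over 23 mice. Comp was at 0.69 with Tnmd, made up of -0.035 in sedentary and 0.87 in fatigued mice, and at 0.57 without fatigued PBMT mouse 5. Without sedentary control mouse 4 the sedentary value of Comp was 0.13. Scx was at 0.23 with Tnmd, made up of -0.35 in sedentary and 0.68 in fatigued mice. This value rested on single mice, at 0.014 without fatigued PBMT mouse 5 and 0.55 without sedentary control mouse 4.

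Fmod and Chad were each the gene most like the other. They had an r of 0.98, which was 0.91 in sedentary and 0.99 in fatigued mice and 0.97 without fatigued PBMT mouse 5. Second to Chad for Fmod came Cilp2 at 0.94, which was also the gene most like Thbs4, at 0.94, followed by Crtap at 0.89. Comp was most like Fmod and Chad, both at 0.93, and Chad after Fmod was most like 1500015O10Rik at 0.94. Mkx was most like Kctd12 (0.86) and Adgrg2 (0.85). Scx was most like Nans (0.84) and Nucb1 (0.83), genes of sugar metabolism and of a calcium-binding Golgi protein, and had an r of -0.18 with Mkx. Without sedentary control mouse 4 the r of Scx was 0.76 with Nans and 0.68 with Nucb1.

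Sox9 kept apart from the tendon genes. Its r with the other 7 tested members ran from 0.098 for Chad to 0.28 for Scx. The 5 genes most like it were Rcan1 (0.75), Atf3 (0.74), Xirp1 (0.72), Cgref1 (0.70) and Gm12346 (0.69). Atf3 encodes a stress-induced transcription factor, Rcan1 a regulator of calcineurin and Xirp1 an actin-binding protein of striated muscle. In the 12 fatigued mice Sox9 reached 0.90 with Atf3 and 0.87 with Rcan1, and in the 12 sedentary mice 0.44 and 0.31. The median level of Atf3 was 5.09 CPM in sedentary controls, 3.70 CPM in sedentary PBMT mice, 82.1 CPM in fatigued controls and 102.2 CPM in fatigued PBMT mice.

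Fatigued and sedentary controls were compared next, a contrast that carries exercise and sequencing project together. Thbs4 and Sox9 rose, and 2 of 8 members were called by edgeR's quasi-likelihood test with Benjamini-Hochberg adjustment, against 2809 of 15108 genes (18.6%), of which 1375 (9.10%) rose. Sox9 was higher by 1.34 on the log2 scale (SE 0.29, edgeR adjusted p 0.00218), in 6 of 6 fatigued controls above every sedentary control. Thbs4 was higher by 1.13 (SE 0.26, edgeR adjusted p 0.00483), in 5 of 6. The values for Fmod, Comp and Chad were 0.98 (SE 0.42), 1.30 (SE 0.54) and 1.40 (SE 0.59), with edgeR adjusted p of 0.104, 0.0967 and 0.102. Tnmd was at 0.50 (SE 0.36), Mkx at 0.69 (SE 0.45) and Scx at -0.27 (SE 0.22), none of them called, and Scx was at 0.046 without sedentary control mouse 4. The median of the 8 members was 1.06 against -0.012 over all genes.

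In PBMT mice, which share no animal with the control contrast, 5 of 8 members rose, Fmod, Thbs4, Comp, Chad and Sox9, against 4051 of 15108 genes (26.8%), of which 2135 (14.1%) rose, by the same edgeR test. Sox9 was higher by 1.94 (SE 0.29, edgeR adjusted p 2.70e-05) and Thbs4 by 1.34 (SE 0.26, edgeR adjusted p 7.58e-04), each in 6 of 6 fatigued mice above every sedentary mouse. Fmod was higher by 1.17 (SE 0.42, edgeR adjusted p 0.0420), Comp by 1.64 (SE 0.54, edgeR adjusted p 0.0282) and Chad by 1.64 (SE 0.58, edgeR adjusted p 0.0426). These 3 calls also depended on the filter, since without it Thbs4 and Sox9 were the members called, with edgeR adjusted p of 0.0845 for Fmod, 0.0576 for Comp and 0.0840 for Chad. A block by mouse number, which was not taken as the design, likewise left Thbs4 and Sox9 as the members called. Not called were Tnmd at 0.84 (SE 0.36), Mkx at 0.97 (SE 0.44) and Scx at 0.022 (SE 0.22), which were 0.44 (SE 0.32), 0.46 (SE 0.41) and -0.14 (SE 0.21) without fatigued PBMT mouse 5. By the count of members whose groups did not overlap, every fatigued above every sedentary mouse held for 1 of 9 in controls, where it held for 4.08% of genes, and for 2 of 9 in PBMT mice, where it held for 5.98%.

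Thbs4 and Sox9 were called in both contrasts whichever of the 24 mice was left out, and the calls of Fmod, Comp and Chad depended on single animals. In controls these 3 genes were also called without fatigued control mouse 4, at 1.19, 1.53 and 1.64 (edgeR adjusted p 0.0283, 0.0344 and 0.0381), and without fatigued PBMT mouse 5, which is in neither group of that contrast (edgeR adjusted p 0.0439, 0.0339 and 0.0433). In PBMT mice all 3 lost their calls without fatigued PBMT mouse 5, at 0.62, 0.85 and 0.81 (edgeR adjusted p 0.221, 0.180 and 0.261), and likewise without sedentary PBMT mouse 1, 3 or 5, with 2 members called each time. Comp kept its call and Fmod and Chad lost theirs without fatigued PBMT mouse 1 or 3 or sedentary PBMT mouse 4 or 6, with 3 members called. Fmod alone lost its call without sedentary control mouse 1, with 4 members called, and it gave way to Tnmd without sedentary PBMT mouse 2. Without fatigued PBMT mouse 4 there were 6 calls, with Tnmd added.

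With Tnmd as a covariate, an alternative chosen after seeing the data, the same edgeR test called Thbs4 and Sox9 and no other member in either contrast. Thbs4 was higher by 0.80 (SE 0.15, edgeR adjusted p 8.06e-04) in controls and 0.83 (SE 0.16, edgeR adjusted p 5.21e-04) in PBMT mice. Sox9 was higher by 1.29 (SE 0.30, edgeR adjusted p 0.00494) and 1.87 (SE 0.31, edgeR adjusted p 1.23e-04). Fmod was at 0.50 (SE 0.28) and 0.31 (SE 0.30), Comp at 0.68 (SE 0.44) and 0.57 (SE 0.46), and Chad at 0.72 (SE 0.40) and 0.31 (SE 0.42). The Sox9 values moved little, and the Fmod, Comp and Chad values were smaller at the same Tnmd level. Over 24 mice Tnmd, itself a member, had an r of 0.77 with Fmod, 0.69 with Comp, 0.78 with Chad and 0.13 with Sox9. These movements are not independent of those correlations, which were known when the covariate was chosen.

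Other genes of the tendon and cartilage programs were read from lists, whose counts stand beside the 9.10% of all genes that rose in controls and the 14.1% that rose in PBMT mice. Of the 20 other tendon matrix genes, 3 rose in the control contrast by the edgeR test, Tnc at 1.52, Prelp at 0.90 and Prg4 at 1.94, and 14 in the PBMT contrast. The 3 of 20 in controls lies between the share of genes that rose there and the 18.6% called in either direction. These counts were 11 and 9 without fatigued PBMT mouse 5, where 10.3% of all genes rose in controls and 11.3% in PBMT mice, and 6 and 14 without fatigued control mouse 4, where 8.14% and 13.7% rose. Of 12 tendon regulators, 3 rose and 1 fell in controls, with Egr1, an early-response factor that also acts in tendon, at 2.93 and the TGF-beta mediator Smad3 at 0.55, and 4 rose and 2 fell in PBMT mice. Egr1 was also 1 of the 4 genes called for PBMT in sedentary muscle, at 2.98 (SE 0.38, edgeR adjusted p 0.0139), with a median of 2.03 CPM in control and 16.0 CPM in PBMT mice and no overlap between them. That call was lost in a single model of 24 mice (2.97, edgeR adjusted p 0.113), without the low-count filter (edgeR adjusted p 0.0513) and without sedentary control mouse 1, 2, 4, 5 or 6 (edgeR adjusted p 0.0552 to 0.0819), with values of 2.68 to 3.15 whichever mouse was left out. The call was kept by DESeq2 (DESeq2 adjusted p 8.39e-11) and with a block by mouse number (edgeR adjusted p 0.0377). It was also kept without any single sedentary PBMT mouse (edgeR adjusted p 4.63e-04 to 0.0272). Summed levels of the regulators were 284 to 338 CPM in sedentary and 332 to 494 CPM in fatigued mice, with Smad3 as the most abundant gene.

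Among 22 Sox9 partners and cartilage genes, 13 had enough counts for the test over 24 mice. In controls 1 rose, the receptor gene Fgfr3 at 1.71, and in PBMT mice 5 rose, Fgfr3 at 2.18, Runx3 at 1.95, Col11a2 at 1.08, Sox5 at 0.89 and Wwp2 at 0.21. Without fatigued PBMT mouse 5 the counts were 2 in each contrast, Fgfr3 with Pth1r in controls and Fgfr3 with Runx3 in PBMT mice, and without fatigued control mouse 4 they were 2 and 5. Summed levels were 142.5 to 208.4 CPM over the 24 mice, overlapped in all groups and came mostly from Sox6, with group medians of 144.8 to 168.3 CPM. PBMT changed 0 of 11 tested genes of this list in sedentary and 0 of 13 in fatigued muscle by the edgeR test, with 1 and 0 at an unadjusted p under 0.05.

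Markers of other tissues that a dissected muscle may carry were measured beside the members, and their part in the results was not tested. Over all genes tested, 9.10% rose in controls and 14.1% in PBMT mice, and several of the small list counts that follow lie near these shares, such as 1 of 8 and 1 of 9. Of 5 genes of the myotendinous junction, 3 rose in each fatigue contrast, with Ankrd1 at 3.70 and Col22a1 at 1.02 in controls, and their summed level was 396.8 to 533.1 CPM in sedentary and 517.8 to 795.5 CPM in fatigued mice, with Itgb1 the most abundant. Of 8 bone genes, 1 rose in controls (Alpl at 1.09) and 3 in PBMT mice (Bglap, Dmp1 and Alpl), and the summed level, with Alpl the most abundant over the 24 mice, peaked at 67.0 CPM in fatigued PBMT mouse 5, 60.2 CPM in fatigued control mouse 1 and 51.8 CPM in sedentary PBMT mouse 6. In fatigued PBMT mouse 5 the sum included Spp1 at 24.3 CPM, Bglap at 8.11 CPM and Dmp1 at 4.38 CPM. Those 3 mice also had the highest Acan level of their groups, whereas in sedentary controls the mouse highest for Acan, mouse 4, had the lowest bone sum, 10.1 CPM, and mouse 2 the highest, 20.1 CPM. Without fatigued PBMT mouse 5 the bone genes called were 2 in controls (Bglap and Alpl) and 1 in PBMT mice (Alpl). The osteocalcin gene Bglap had no count in 8 of 24 mice. Of 9 interstitial mesenchymal genes, 1 rose in controls and 6 in PBMT mice (2 and 5 without fatigued PBMT mouse 5), with summed levels of 532.7 to 1542.0 CPM led by Gsn and the maximum in fatigued PBMT mouse 5. Of 5 adipocyte genes 0 were called by the edgeR test in either contrast, 0 and 1 had an unadjusted p under 0.05, and sums ran from 192.5 to 369.3 CPM, led by Fabp4 and again highest in fatigued PBMT mouse 5. Fabp4 had 165.0 to 305.7 CPM and Cfd 3.14 to 69.3 CPM, while Adipoq, Plin1 and Lep did not exceed 11.3, 7.34 and 3.89 CPM. The sum thus came mostly from Fabp4, and which cells its counts came from was not tested. Slopes on Tnmd in fatigued mice were positive for 9 of 9 interstitial genes with 1 called (Clec3b at 0.41), and for 5 of 5 adipocyte genes with 1 called (Lep at 1.11), all 5 at an unadjusted p under 0.05. Of all 14573 genes in that slope test, 1.23% were called with positive slopes and 2382 had an unadjusted p under 0.05. The median slope of the adipocyte genes was 1.03, above the 0.72 of the other tendon matrix genes, and that of 6 slow muscle genes was 1.00, with 5 positive, 0 called by edgeR and 1 at an unadjusted p under 0.05. Of the interstitial and adipocyte genes 0 were called by edgeR without fatigued PBMT mouse 5, with 1 and 3 at an unadjusted p under 0.05. In sedentary mice the slopes were positive for 8 of 9 interstitial genes (median 0.28) and 5 of 6 slow muscle genes (median 0.20). They were positive for 2 of 5 adipocyte genes (median -0.35) and 1 of 10 fast muscle genes (median -0.22). By edgeR 0 of these were called, with 5 interstitial and 2 fast muscle genes at an unadjusted p under 0.05, beside 1455 of all 14176 genes.

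Skin and muscle fibre markers were read in the same way. Of 9 skin keratinocyte genes 3 could be tested, Krt1 and Krt15 had no count in 20 of 24 mice and Krt5 and Krt14 none in 17, and the summed level was 5.63 to 34.8 CPM, led by Trp63. In controls 1 of them rose and in PBMT mice 1 rose (Trp63 at 1.58) and 1 fell (Krt10 at -1.52). Their slopes on Tnmd in fatigued mice gave 0 calls and 0 at an unadjusted p under 0.05. Of 10 fast muscle genes 4 rose in controls, where 9.10% of all genes did, and 3 in PBMT mice, where 14.1% did, with Myh4 at 0.86 and 0.65, and summed levels were 113312 to 184338 CPM. Of 6 slow muscle genes 0 rose and 1 fell in controls (Myl3 at -0.75, not called without fatigued control mouse 4) and 0 were called in PBMT mice, where 0 had an unadjusted p under 0.05, and sums were 30.8 to 125.8 CPM, led by Myl3.

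Promoter sequences are shown for Tnmd and 3 members that rose with it from mouse to mouse, to let their start regions be read side by side. RefSeq windows of 300 bases around the transcription start, on build GRCm38.p6, were matched for 5 of the 9 members, Tnmd, Fmod, Thbs4, Chad and Acan. The E-box CANNTG, the kind of motif that the basic helix-loop-helix factor SCX recognises and the same on both strands, was in 0 places for Tnmd, 1 for Fmod, 2 for Thbs4, 1 for Chad and 1 for Acan, and in 72.3% of 32851 promoters. Its form CAGATG, searched on both strands, was in the Fmod window, where the printed strand reads CATCTG, and in 17.2% of promoters. The SOX-type motif ACAAAG, on either strand, was in the Tnmd window and in 18.7% of promoters, and its variant ACAATG in none of the 5 windows and in 12.6% of promoters. A match is a description and does not show binding. Each sequence is written 5′ to 3′ on the strand of the gene, with CANNTG in capitals: Tnmd at chrX:133850758-133851057 (plus strand), Fmod at chr1:134037004-134037303 (plus), Thbs4 at chr13:92794769-92795068 (minus) and Chad at chr11:94564797-94565096 (plus).
Tnmd: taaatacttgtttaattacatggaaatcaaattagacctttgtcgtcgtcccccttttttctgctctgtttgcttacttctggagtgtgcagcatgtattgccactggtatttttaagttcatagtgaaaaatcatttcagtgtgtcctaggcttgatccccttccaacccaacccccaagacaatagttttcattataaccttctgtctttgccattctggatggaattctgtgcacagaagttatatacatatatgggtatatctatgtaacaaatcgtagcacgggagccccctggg
Fmod: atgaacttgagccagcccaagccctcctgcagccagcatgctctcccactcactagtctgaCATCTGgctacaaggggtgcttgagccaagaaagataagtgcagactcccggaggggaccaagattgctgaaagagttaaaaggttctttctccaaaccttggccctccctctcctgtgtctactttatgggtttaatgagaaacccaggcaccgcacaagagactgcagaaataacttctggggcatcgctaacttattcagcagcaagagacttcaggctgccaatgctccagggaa
Thbs4: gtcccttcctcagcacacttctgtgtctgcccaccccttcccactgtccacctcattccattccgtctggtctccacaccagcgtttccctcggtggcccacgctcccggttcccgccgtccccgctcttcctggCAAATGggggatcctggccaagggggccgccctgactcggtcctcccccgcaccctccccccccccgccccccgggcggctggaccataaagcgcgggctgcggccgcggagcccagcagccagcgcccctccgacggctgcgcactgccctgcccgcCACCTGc
Chad: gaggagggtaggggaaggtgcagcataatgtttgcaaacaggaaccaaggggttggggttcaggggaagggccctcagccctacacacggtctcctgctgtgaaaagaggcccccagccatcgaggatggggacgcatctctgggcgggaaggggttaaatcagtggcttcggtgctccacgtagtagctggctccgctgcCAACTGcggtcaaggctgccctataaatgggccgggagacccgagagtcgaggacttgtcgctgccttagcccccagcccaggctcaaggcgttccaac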

How the data were processed

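Counts per gene were deposited by the authors, 1 table for each of 24 mice. Per the submitters' processing notes the pipeline used Trimmomatic, STAR 2.7.1a, Picard 2.20.4, StringTie 2.0.4, featureCounts 1.6.0 and HTSeq on GRCm38; which program made the deposited counts, and its strand setting, are not stated. Of 55487 identifiers, 55227 matched GENCODE. Counts were fitted with edgeR 4.0.16 in R 4.3.3 (TMM scaling, filterByExpr with a minimum count of 10, robust quasi-likelihood test, Benjamini-Hochberg over all genes tested, threshold 0.05), within each project for PBMT and over 24 mice in 4 groups otherwise. DESeq2 1.42.0 was an alternative, beside other scaling, no filter, a block by mouse number, other covariates and leaving out each mouse. Genes named are the 9 members, genes of the marker lists described, and the genes with the highest Pearson r to a member, 5 for Tnmd and Sox9 and 2 for the others. Results of 1 further marker list are not reported here. Members and lists were chosen with earlier results of these data known. The code was tested on simulated data. Tables and figures used Python 3.11.15.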

Additional observations from a re-analysis of the deposited data

Results flagged for a closer look

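Within each group of 6 mice, the gap between the most extreme mouse and its nearest neighbour was divided by the range of the group on the log2 CPM scale. Chance flags about 1 in 20 groups, and 7 of 36 combinations of member and group were past the limit for 6 samples. Fatigued control mouse 4 was far below the rest of its group for Fmod (0.695), Thbs4 (0.627) and Chad (0.706). Sedentary control mouse 4 was far above its group for Scx (0.646) and far below it for Mkx (0.725). Acan was far above the group in fatigued control mouse 1 (0.641) and in fatigued PBMT mouse 5 (0.668). The members of 1 mouse come from the same library, so these combinations are not independent, and the cause was not tested.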

How the results depend on the processing

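Under settings other than leaving out 1 mouse, 270 member fold changes and slopes kept their sign and their side of the threshold, 15 kept the sign and lost the call, and 19 changed sign. Leaving out 1 mouse at a time, 1147 were the same, 36 lost and 8 gained the call, and 105 changed sign. The fits with Tnmd as covariate over 24 mice were chosen after seeing the data. Low counts limit Mkx and Acan. The cause of the changes listed here was not tested.

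Mouse numbers were not taken to pair mice, since same-number correlations ran from -0.086 to 0.084 in sedentary and from -0.10 to 0.34 in fatigued mice. In fatigued mice 4 of 6 were over 0.1, and for mice 1, 3 and 5 the best match had the same number, a hint from the data and not the design. With a block by number the PBMT values in sedentary muscle were 0.028 for Scx, -0.018 for Tnmd and 0.031 for Mkx, the differences between states -0.00032 for Mkx and -0.041 for Chad, and 2 members, Thbs4 and Sox9, were called between fatigued and sedentary PBMT mice.

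Without the low-count filter Comp was 0.0021 for PBMT in sedentary muscle, and 2 members were called between fatigued and sedentary PBMT mice. With Fmod as covariate in place of Tnmd, PBMT values were -0.067 for Mkx and -0.042 for Thbs4 in sedentary and 0.034 for Chad in fatigued muscle. With the mean of the other tendon matrix genes they were 0.00054 for Comp in sedentary and -0.0080 for Thbs4 in fatigued muscle. With Tnmd as covariate over 24 mice, differences between states were -0.24 for Mkx, -0.19 for Fmod, -0.11 for Comp and -0.40 for Chad, average effects -0.038 for Mkx and -0.011 for Comp, and Scx was -0.074 between fatigued and sedentary PBMT mice, where 2 members were called. Without the mice farthest from the median of Tnmd the sedentary Comp slope was 0.015, and 0 members and 3 genes had a called slope in fatigued mice.

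Leaving out each mouse in turn, members called ran from 0 to 5 for the slope on Tnmd in fatigued mice, 2 to 5 for fatigued against sedentary controls and 2 to 6 for fatigued against sedentary PBMT mice. Log2 values of the members that changed sign are given as lowest to highest. For PBMT in sedentary muscle they ran from -0.16 to 0.25 for Scx, -0.19 to 0.12 for Tnmd, -0.23 to 0.21 for Mkx, -0.018 to 0.27 for Fmod, -0.085 to 0.087 for Thbs4, -0.18 to 0.12 for Comp and -0.11 to 0.089 for Sox9. For PBMT in sedentary muscle with Tnmd as covariate they ran from -0.15 to 0.25 for Scx, -0.16 to 0.25 for Mkx, -0.043 to 0.26 for Fmod, -0.070 to 0.14 for Thbs4, -0.27 to 0.15 for Comp and -0.18 to 0.090 for Sox9. For PBMT in fatigued muscle they ran from -0.048 to 0.52 for Tnmd, -0.24 to 0.44 for Mkx, -0.29 to 0.43 for Fmod, -0.083 to 0.33 for Thbs4, -0.46 to 0.69 for Comp and -0.38 to 0.66 for Chad. For PBMT in fatigued muscle with Tnmd as covariate they ran from -0.17 to 0.088 for Fmod, -0.051 to 0.073 for Thbs4, -0.25 to 0.19 for Comp and -0.22 to 0.062 for Chad. For the difference of the PBMT effect between states they ran from -0.029 to 0.39 for Scx, -0.056 to 0.54 for Tnmd, -0.23 to 0.50 for Mkx, -0.37 to 0.36 for Fmod, -0.090 to 0.32 for Thbs4, -0.46 to 0.69 for Comp and -0.60 to 0.43 for Chad. For the average PBMT effect they ran from -0.0015 to 0.23 for Scx, -0.018 to 0.26 for Tnmd, -0.12 to 0.23 for Mkx, -0.10 to 0.26 for Fmod, -0.036 to 0.17 for Thbs4, -0.23 to 0.34 for Comp and -0.076 to 0.51 for Chad. For fatigued against sedentary controls they ran from -0.37 to 0.046 for Scx. For fatigued against sedentary PBMT mice they ran from -0.14 to 0.11 for Scx. For the slope on Tnmd in sedentary mice they ran from -0.71 to 0.047 for Scx, -0.49 to 0.39 for Comp and -0.42 to 0.21 for Sox9.

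Counts over all genes also moved. PBMT in sedentary muscle gave 4 genes, against 16 without the filter, 11 with the block, 60 by DESeq2, 1 in a single model of 24 mice and 2 to 20 leaving out a mouse, with 18 without sedentary control mouse 4 and 20 without sedentary PBMT mouse 5. PBMT in fatigued muscle gave 0, against 1 with the block and 2 by DESeq2. The average effect gave 0, against 3 with the block and 3 by DESeq2. The slope in sedentary mice gave 0, against 2 without the filter, and PBMT in sedentary muscle with Tnmd as covariate gave 13, against 4 with either other covariate and 2 to 31 leaving out a mouse. The difference between states gave 1, against 1 to 3 leaving out a mouse, and the average effect 0, against 0 to 2.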
